A study of Mus musculus with 8 samples.

Results

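The natriuretic peptide and renin-angiotensin genes described here are 10 genes of 2 hormone systems with opposing actions on blood pressure, out of 22180 genes measured. They were taken by gene symbol as the single symbol of a probe set: Nppa, Nppb, Corin, Npr1, Npr2, Npr3, Mme, Agt, Ace and Agtr1a. All 10 were measured, by 11 of 34351 probe sets, and Npr1 alone had more than 1. No filter on low values was applied. The hearts came from 4 female and 4 male mice, all heterozygous for Pcyt2 (Pcyt2+/-) and 8 months old. They were frozen when collected, 3 to 4 hours after lights on, and labelled as myocardium. Pcyt2 encodes the enzyme that controls synthesis of phosphatidylethanolamine from ethanolamine. Every heart carried the same genotype, so the design compares the sexes. Hearts of wild-type mice were not analysed here, and the sources used here do not give the strain.

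Heart muscle cells store and release 2 natriuretic peptides, ANP from Nppa and BNP from Nppb. Atrial muscle makes most ANP in the adult heart, and strain on the wall raises both peptides. The peptides act through receptors that make cyclic GMP, and cause salt loss and widening of vessels. In the renin-angiotensin system, angiotensinogen is cut by renin and then by angiotensin-converting enzyme into angiotensin II, which narrows vessels and promotes growth of heart muscle and matrix.

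Values are on a log2 scale and relative to a probe set's median of the 8 arrays. A value thus places a heart against the other hearts for 1 gene and gives no absolute level. Levels of different genes could not be compared, and whether heart muscle markers were present could not be checked. Differences are females minus males. The members were chosen with differences between the sexes on these arrays known. Their differences are therefore given as descriptions, with no test. No threshold entered the choice, so there are no members just inside or outside one. The tissue was measured in bulk, so fewer cells of a type and less RNA per cell cannot be told apart. The labels call the samples biological replicates and do not name the animals.

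The arrays matched their sex labels. Xist lay between 1.99 and 2.18 in females, against -3.02 to -1.99 in males, and the Y-linked genes Eif2s3y, Uty and Kdm5d did not overlap in the other direction. Pcyt2, the targeted gene, lay between -0.06 and 0.24 in females and between -0.13 and 0.32 in males, which overlapped. Some hearts stood apart in RNA of other tissues. The mean of the atrial muscle markers was low in female 1, male 1 and male 3. In male 1 this came mainly from the marker Bmp10 (-3.35), while the markers Myl7 and Sln were -0.42 and -0.15. The fast skeletal muscle markers were highest in male 1, male 2 and female 1. The liver gene Alb was high in female 1 and female 2 (1.76 and 2.69, against at most 0.03 in the other hearts).

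Nppb and Nppa are neighbours on mouse chromosome 4, with starts 14822 bases apart on the same strand. Their promoters are shown because these are the 2 peptide genes of the heart, and Nppb alone of the pair did not overlap between the sexes. Each sequence is the 250 bases before the RefSeq start of the gene in the assembly GRCm38.p6, 5′ to 3′ on the plus strand. The Nppa window is chr4:148000472-148000721 and the Nppb window is chr4:147985650-147985899. Capitals mark matches to motifs of factors known to act on these promoters, searched on both strands.
Nppa: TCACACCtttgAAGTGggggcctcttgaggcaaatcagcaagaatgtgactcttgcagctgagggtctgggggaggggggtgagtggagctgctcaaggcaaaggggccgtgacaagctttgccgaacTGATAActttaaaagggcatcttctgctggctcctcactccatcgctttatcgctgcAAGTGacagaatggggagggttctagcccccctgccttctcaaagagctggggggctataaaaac
Nppb: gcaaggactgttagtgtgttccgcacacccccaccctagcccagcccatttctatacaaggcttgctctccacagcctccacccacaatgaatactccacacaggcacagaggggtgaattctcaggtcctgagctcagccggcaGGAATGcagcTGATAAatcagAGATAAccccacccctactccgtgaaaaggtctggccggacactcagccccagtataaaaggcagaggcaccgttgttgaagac
The GATA motif TGATAA lay 122 to 117 bases before the start of Nppa and 95 to 90 bases before that of Nppb. It occurs in 7.94% of the 32851 mouse promoter windows of this length. A second GATA motif, AGATAA, found in 9.99% of windows, lay 84 to 79 bases before the start of Nppb. The NKX2-5 motif AAGTG occurred at 2 places in the Nppa window and in 40.7% of all windows. The T-box motif GGTGTGA lay on the minus strand at the far end of the Nppa window (3.33% of windows). The MCAT motif CATTCC, bound by TEAD factors, lay on the minus strand 105 to 100 bases before the start of Nppb (12.6% of windows). The CArG box of serum response factor was searched only in its strict form, with no mismatch allowed. That form had no match in either window and one in 1.47% of all windows, and looser forms were not searched. None of these matches overlapped. They describe the letters only.

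Nppa, which encodes atrial natriuretic peptide, varied widely between hearts of the same sex and hardly differed between the sexes. Its log2 values were -0.73, 0.20, -0.21 and 0.15 in the 4 females, against 0.03, 0.16, -0.87 and -0.03 in the 4 males. One heart of each sex, female 1 and male 3, was far below the rest, and the sexes overlapped fully. The means were -0.15 ± 0.43 in females and -0.18 ± 0.47 in males (SD, n = 4 each), a difference of 0.03 ± 0.26 (SE). The within-sex SD of 0.45 ranked 28 of all 22180 genes, whose median was 0.07. From the lowest to the highest heart Nppa spanned 2.11-fold. The sign of its difference was not settled: it was the same in 14 of 19 alternatives and ran from -0.20 without male 3 to 0.50 without the 3 hearts highest in the skeletal myosin gene Myh4. It was also below 0 without female 2 or female 4 and without the 3 hearts lowest in Bmp10, and it was 0.23 without female 1.

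Nppb, the gene of B-type natriuretic peptide, had lower values in females. Its values were -0.43, -0.02, -0.14 and -0.08 in females, against 0.26, 0.15, 0.02 and 0.02 in males. Each female lay below each male, but female 2 lay close to male 3 and male 4. The means were -0.17 ± 0.18 in females and 0.11 ± 0.11 in males (SD, n = 4 each), so Nppb was 1.22-fold lower in females, with a difference of -0.28 ± 0.09 (SE). That difference was 1.85 times the within-sex SD and kept its sign in all 19 alternatives. It depended in size on female 1, male 1 and male 2, the 3 hearts highest in Myh4. Without them it was -0.10, and without the 3 hearts lowest in the atrial gene Bmp10 it was -0.16. With the fast skeletal muscle markers as a covariate it was -0.27.

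**Figure D1:**
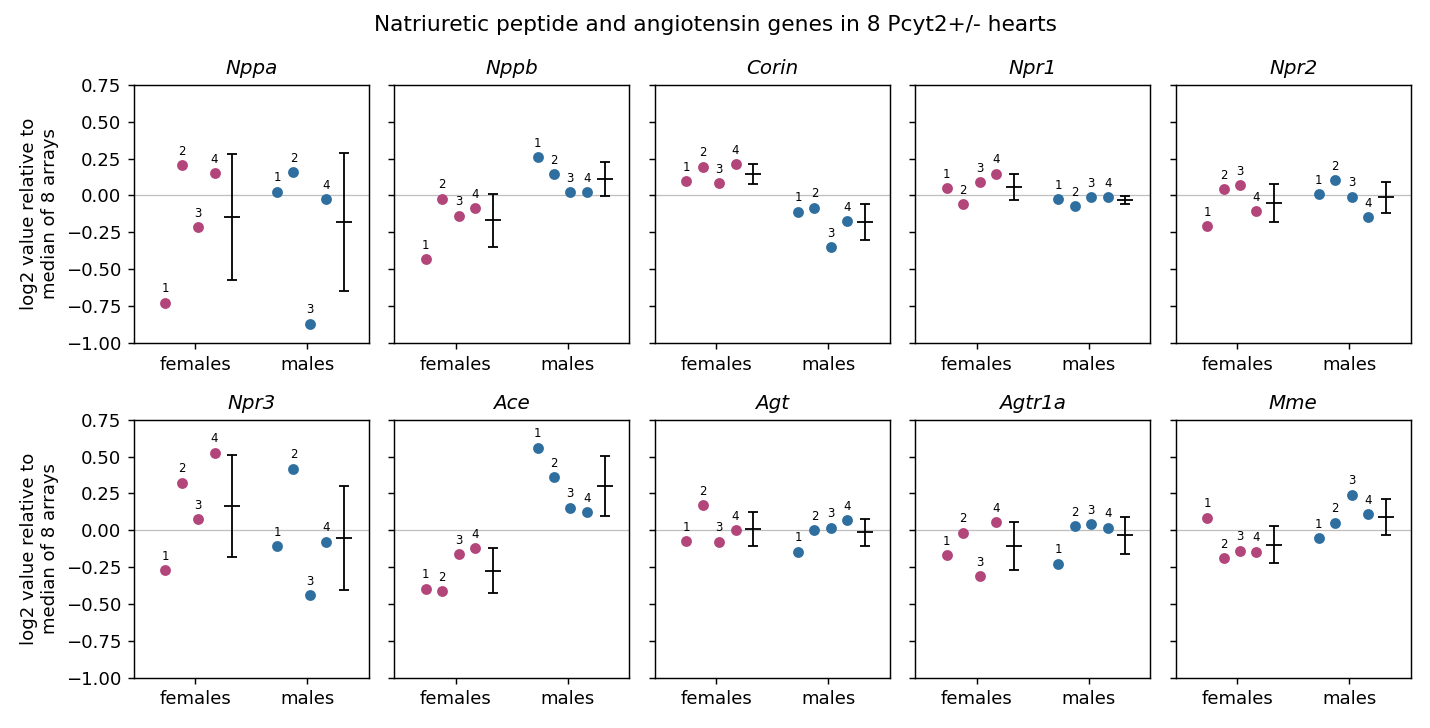
Log2 values of the 10 genes, each relative to its own median of 8 arrays (y axis), with females left of males. Numbered points are hearts, and black bars are the mean ± SD of 4 hearts. Corin lies higher in all 4 females, Ace and Nppb lie lower in all 4 females, and Nppa and Npr3 spread widely within both sexes.

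Corin encodes the membrane protease of heart muscle cells that cuts the ANP precursor into the active hormone. It had higher values in females, at 0.10, 0.20, 0.08 and 0.21, against -0.11, -0.08, -0.35 and -0.18 in males. The sexes did not overlap, and male 3 was the lowest heart. The means were 0.15 ± 0.07 in females and -0.18 ± 0.12 in males (SD, n = 4 each), a 1.25-fold difference (0.33 ± 0.06, SE). The difference was 3.37 times the within-sex SD. It ran from 0.27 to 0.43 over the 19 alternatives. The mean of 6 general heart muscle markers, whose cells make corin, lay between -0.06 and 0.04 in females and between -0.04 and 0.02 in males, and the part of heart muscle cells in the difference of Corin was not tested. With the atrial markers as a covariate the difference of Corin was 0.31.

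The 3 receptors of the natriuretic peptides did not share a pattern. Npr1 encodes the cyclic GMP-forming receptor for ANP and BNP. Its values were 0.05, -0.06, 0.09 and 0.15 in females, against -0.02, -0.07, -0.01 and -0.01 in males, which overlapped through female 2. The difference was 0.09 ± 0.05 (SE). Its 2 probe sets both had higher means in females but differed in size, with 0.05 and 0.13. The gene's difference was 0.15 without the 2 hearts highest in Alb and 0.06 without female 4. Npr2 encodes the receptor for C-type natriuretic peptide. Its values were -0.21, 0.04, 0.07 and -0.11 in females, against 0.01, 0.10, -0.01 and -0.15 in males. These overlapped, with a difference of -0.04 ± 0.07 (SE) that kept its sign in 16 of 19 alternatives, from -0.08 without male 4 to 0.08 without the 3 hearts highest in Myh4.

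Npr3 encodes the clearance receptor, which takes up natriuretic peptides for breakdown and is known from the endocardium. Its values were -0.27, 0.32, 0.08 and 0.53 in females, against -0.11, 0.42, -0.44 and -0.08 in males. The sexes overlapped, and female 4 and male 2 were the highest hearts. The means were 0.16 ± 0.34 in females and -0.05 ± 0.35 in males (SD, n = 4 each), and the difference of 0.22 ± 0.20 (SE) was below the SD within each sex. Its within-sex SD of 0.35 ranked 62 of 22180 genes. The difference was 0.57 without the 3 hearts highest in Myh4, 0.37 without male 2, 0.36 without female 1 and 0.35 without the 2 hearts highest in Alb. It was 0.09 without female 4, 0.09 without male 3, 0.11 with the atrial markers as a covariate and 0.14 without the 3 hearts lowest in Bmp10.

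Mme encodes neprilysin, a membrane peptidase that breaks down natriuretic peptides and also cuts angiotensin peptides. Its values were 0.08, -0.19, -0.14 and -0.15 in females, against -0.05, 0.05, 0.24 and 0.11 in males. The other 3 females lay below all 4 males, and female 1 lay among them. The means were -0.10 ± 0.12 in females and 0.09 ± 0.12 in males (SD, n = 4 each), a difference of -0.19 ± 0.08 (SE). It was -0.33 without the 3 hearts highest in Myh4, of which female 1 is one, against -0.13 without male 3 and -0.15 without female 2.

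Ace, which encodes angiotensin-converting enzyme of endothelial cells, had the largest difference among the 10 genes. Its values were -0.40, -0.41, -0.16 and -0.12 in females, against 0.56, 0.36, 0.15 and 0.12 in males. Each female lay below each male, and the nearest hearts were female 4 (-0.12) and male 4 (0.12), in a range of 0.98 over the 8 hearts. The means were -0.27 ± 0.15 in females and 0.30 ± 0.20 in males (SD, n = 4 each), so Ace was 1.49-fold lower in females (-0.57 ± 0.11, SE). The difference was 3.17 times the within-sex SD and kept its sign in all 19 alternatives, from -0.63 to -0.37. The smallest came without the 3 hearts highest in Myh4.

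Endothelial and fast skeletal muscle markers, like Ace, were lower in females on average. From heart to heart they went with Ace in some hearts and against it in others. Of 6 endothelial markers, 5 had lower means in females, and their mean lay between -0.15 and -0.02 in females and between -0.0018 and 0.092 in males. It was 0.0027 and -0.0018 in male 1 and male 2, the highest in Ace, against 0.092 and 0.040 in male 3 and male 4. In females it was -0.15 in female 1 and -0.02 in female 2, the hearts lowest in Ace. Kdr and Cdh5, endothelial receptor and junction genes, had differences of -0.19 and -0.11, and the markers Egfl7 and Tie1 had -0.12 and -0.11. The differences of the other markers, Pecam1 and Tek, were -0.0005 and 0.0085. All 8 fast skeletal muscle markers had lower means in females. Their mean ran from -0.22 to 0.32 in females and from -0.21 to 0.88 in males, highest in male 1 and male 2, the hearts highest in Ace. Among females it was highest in female 1 and female 2 (0.32 and 0.11), the hearts lowest in Ace. With these skeletal markers as a covariate the difference of Ace was -0.53. The mean of 5 lung markers, another tissue rich in the enzyme, lay between -0.04 and 0.01 in females and between -0.02 and 0.06 in males. The part of the endothelial, fast skeletal muscle and lung markers in the difference of Ace was not tested.

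**Figure D2:**
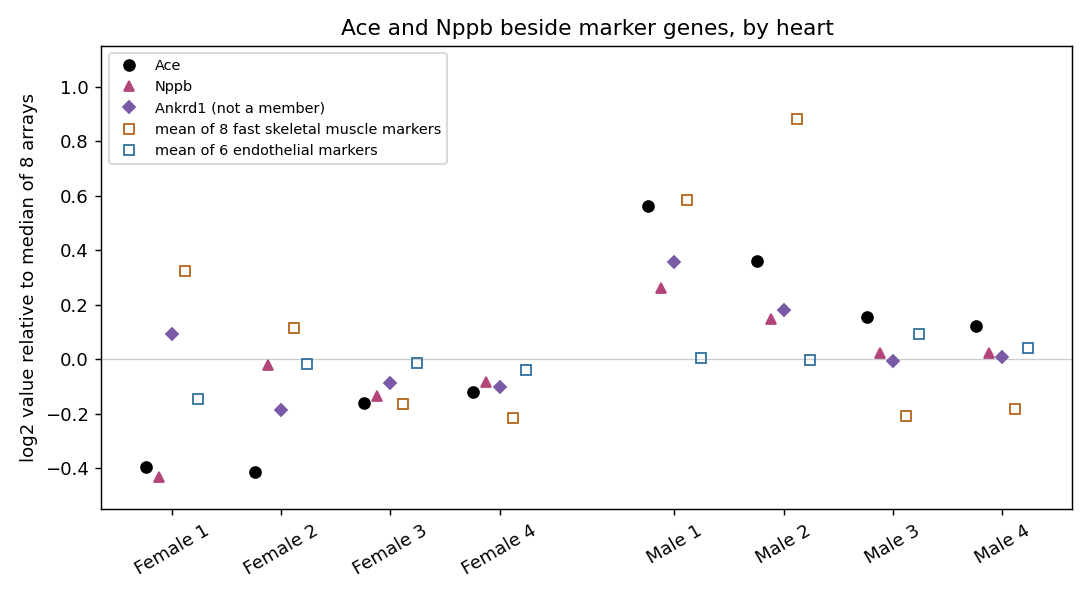
Log2 values relative to the median of 8 arrays (y axis) for Ace, Nppb and the heart muscle stress gene Ankrd1, with the means of 8 fast skeletal muscle and 6 endothelial markers, by heart, females left. Ace reaches 0.56 in male 1 and 0.36 in male 2, the hearts with the highest skeletal marker means (0.59 and 0.88), and stays above 0 in the other 2 males. Female 1 has the next highest skeletal marker mean (0.32), with Ace at -0.40.

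Agt encodes angiotensinogen, the precursor of the angiotensins. Its values were -0.07, 0.17, -0.08 and 0.0017 in females, against -0.15, -0.0017, 0.02 and 0.07 in males. The sexes overlapped, and the difference was 0.02 ± 0.07 (SE), with the same sign in 13 of 19 alternatives, which ran from -0.03 without female 2 to 0.05 without male 4. Liver makes most circulating angiotensinogen. The 2 females high in Alb had Agt values of -0.07 and 0.17, the first within and the second above the range of the other 6 hearts.

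Agtr1a encodes the main receptor for angiotensin II. Its values were -0.17, -0.02, -0.31 and 0.06 in females, against -0.23, 0.03, 0.04 and 0.02 in males. Among males, 3 lay close together and male 1 lay far below them. The sexes overlapped, and the difference was -0.08 ± 0.09 (SE). It was -0.01 without female 3 and -0.05 without male 3, against -0.14 without male 1 and -0.13 without female 4. It was -0.12 without the 3 hearts highest in Myh4 and -0.11 without the 3 lowest in Bmp10. The mean of 8 smooth muscle and pericyte markers, cell types known to carry this receptor, lay between -0.07 and 0.03 in females and between -0.10 and 0.15 in males.

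Over the 10 genes, the female mean was higher in 5 and lower in 5, with a median difference of -0.01, against -0.00058 over all genes. Their median absolute difference was 0.14, against 0.04 over all 22180 genes. The values of the sexes did not overlap in 3 of the 10 genes, beside 3.74% of all genes. Of these, 1 was higher in females (Corin), beside 1.89% of all genes, and 2 were higher in males (Ace and Nppb), beside 1.85%. Because the genes were chosen with this contrast known, nothing is read from these counts.

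Other natriuretic, angiotensin and aldosterone genes (38) and regulators of the peptide genes (14) gave 0 calls. Their lists came from general knowledge, with earlier results of these data known. Of 52 measured genes, 0 passed the threshold of 0.05 by limma with Benjamini-Hochberg adjustment over all genes, beside 0.0316% of all genes. At an unadjusted p under 0.05 there were 2 of the 52, beside 6.96% of all genes. Their median difference was -0.0044. The female mean was higher in 24 of the 52 and lower in 28, and their median absolute difference was 0.05. Of the 13 further natriuretic genes, 6 had higher means in females. Pcsk6, whose protease activates corin, had a difference of 0.14 ± 0.07 (SE, limma adjusted p = 0.726). Furin, a protease that cuts the BNP precursor, had one of 0.05 ± 0.05 (SE, limma adjusted p = 0.928). Dpp4, a peptidase that trims BNP, had one of 0.18 ± 0.11 (SE, limma adjusted p = 0.803), and the cyclic GMP-dependent kinase gene Prkg2 one of -0.03. Single hearts moved several of these: Dpp4 was 0.11 without female 4, Furin 0.02 without male 2 or male 3 and 0.086 without male 4, and Prkg2 -0.003 without male 3 and -0.06 without male 1. Without the 3 hearts highest in Myh4, Pcsk6 was 0.08 and Dpp4 0.11, and without the 2 highest in Alb, Dpp4 was 0.34.

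Of 19 measured angiotensin and kinin genes, 9 had higher means in females. Prcp encodes a carboxypeptidase that turns angiotensin II into a shorter peptide. Its values were 0.14, 0.16, 0.01 and 0.06 in females, against -0.14, -0.01, -0.08 and -0.05 in males. The sexes did not overlap, but the nearest hearts, female 3 and male 2, were close. The difference of 0.16 ± 0.04 (SE) did not pass (limma adjusted p = 0.499, from 0.428 to 0.948 over the alternatives), and it was 0.11 without the 2 hearts highest in Alb. Anpep, whose peptidase trims angiotensin III, had a difference of 0.14 ± 0.07 (SE, limma adjusted p = 0.726), or 0.21 without the 3 hearts highest in Myh4. The peptidase gene Prep and the kinin receptor gene Bdkrb1 had differences of -0.08 and -0.08, at limma adjusted p of 0.793 and 0.759. That of Prep was -0.04 without female 4 and -0.14 without the 2 hearts highest in Alb.

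Of the 6 aldosterone genes, 2 had higher means in females and none passed. The aldosterone and corticosterone synthase genes Cyp11b2 and Cyp11b1 had differences of -0.08 and -0.06, and that of Cyp11b1 was -0.04 without female 2 or male 2 and -0.10 without the 3 hearts lowest in Bmp10. The sodium channel gene Scnn1a and the mineralocorticoid receptor gene Nr3c2 had -0.04 and 0.02, and with 1 array left out they ran from -0.07 to -0.001 and from -0.02 to 0.05. Of 14 regulators of the peptide genes, 7 had higher means in females. The transcription factor genes Gata4, Gata6 and Mef2c had differences of -0.12, 0.07 and -0.09, at limma adjusted p of 0.793, 0.793 and 0.756. Without male 4, Gata4 was -0.05 and Mef2c -0.05, and without female 4, Gata6 was 0.03. Gata4 was -0.23 without the 3 hearts highest in Myh4, Gata6 was 0.11 without the 2 highest in Alb, and the 2 probe sets of Mef2c gave -0.15 and -0.02. Ankrd1, a heart muscle stress gene, had a difference of -0.21 ± 0.09 (SE, limma adjusted p = 0.702), or -0.13 without male 1 and -0.13 without the 3 hearts highest in Myh4. Its values were 0.09, -0.19, -0.09 and -0.10 in females, against 0.35, 0.18, -0.01 and 0.01 in males, highest in the 2 males that were also highest in Nppb and Ace. Female 1, the next highest heart in Ankrd1, was the lowest in Nppb (-0.43) and had Ace at -0.40.

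**Figure D3:**
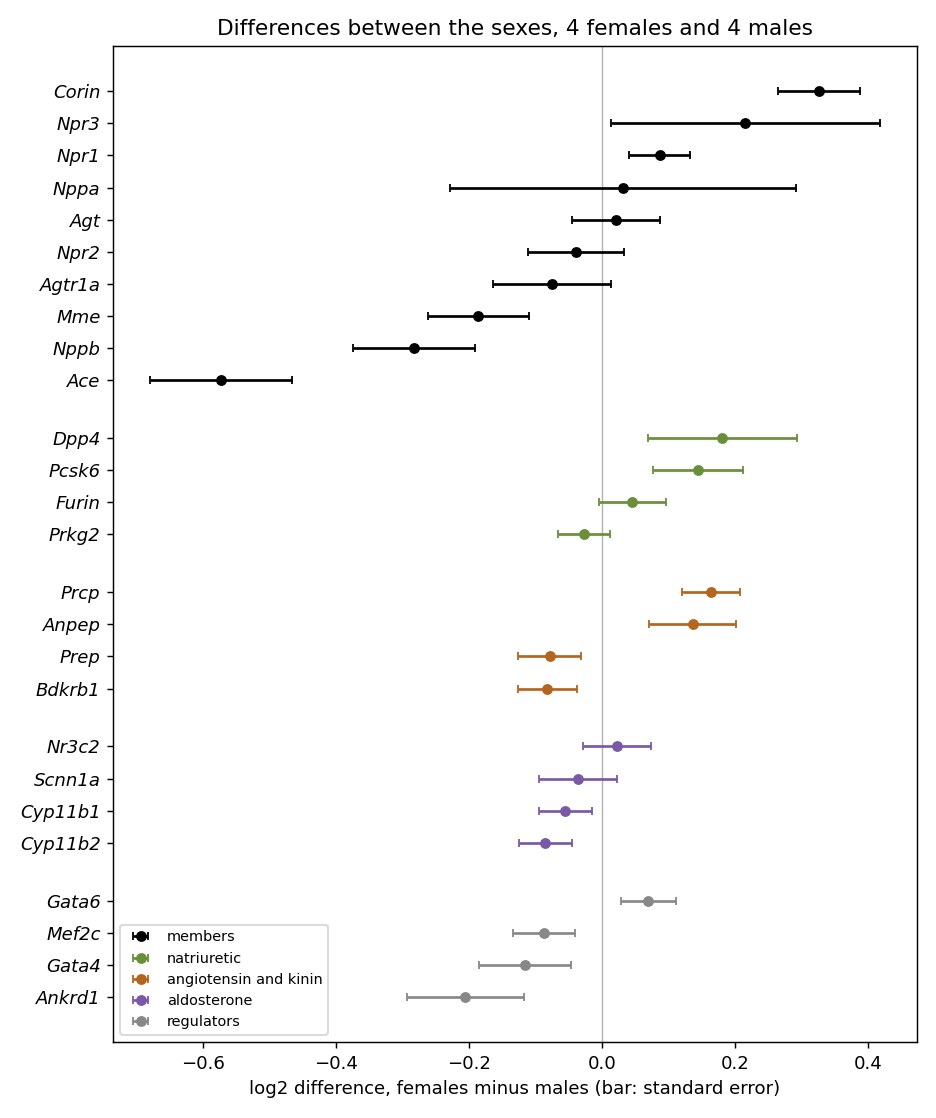
Difference between the sexes on the log2 scale (x axis, females minus males) for the 10 genes and for the named genes of 4 related lists. Points are differences of the means of 4 females and 4 males, and bars are standard errors. Ace at -0.57 and Corin at 0.33 lie furthest from 0.

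Within the sexes, Nppa and Npr3 followed the atrial muscle markers from heart to heart, except for Nppa in male 1. These 6 markers all had higher means in females, and their mean ran from -1.04 to 0.48 in females and from -0.79 to 0.18 in males. Female 1 and male 3 were lowest in the atrial genes Sln (-1.02 and -0.95), a regulator of the calcium pump, and Myl7 (-1.04 and -0.95), the atrial myosin light chain. They were also the 2 lowest in Nppa and in Npr3. Male 1 was different, with Nppa at 0.03. Bmp10, an atrial growth factor gene, was as low there as in female 1 (-3.35 and -3.46), and Kcnj3 was lowest there (-0.19). In Myl7 (-0.42), Myl4 (-0.11) and Sln (-0.15) male 1 came next above female 1 and male 3, and Nr2f2 was -0.03 there. Pam, whose enzyme is abundant in atrial secretory granules, followed Nppa too, with -0.32, 0.25, -0.13 and 0.22 in females, against -0.05, 0.15, -0.31 and 0.05 in males. Female 1 and male 3 were again the lowest. Of the regulators, Tbx5, a transcription factor gene, had its lowest values in male 1 (-0.36) and female 1 (-0.34). With the atrial markers as a covariate the difference of Nppa was -0.10, and the part of these markers in its spread between hearts was not tested.

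**Figure D4:**
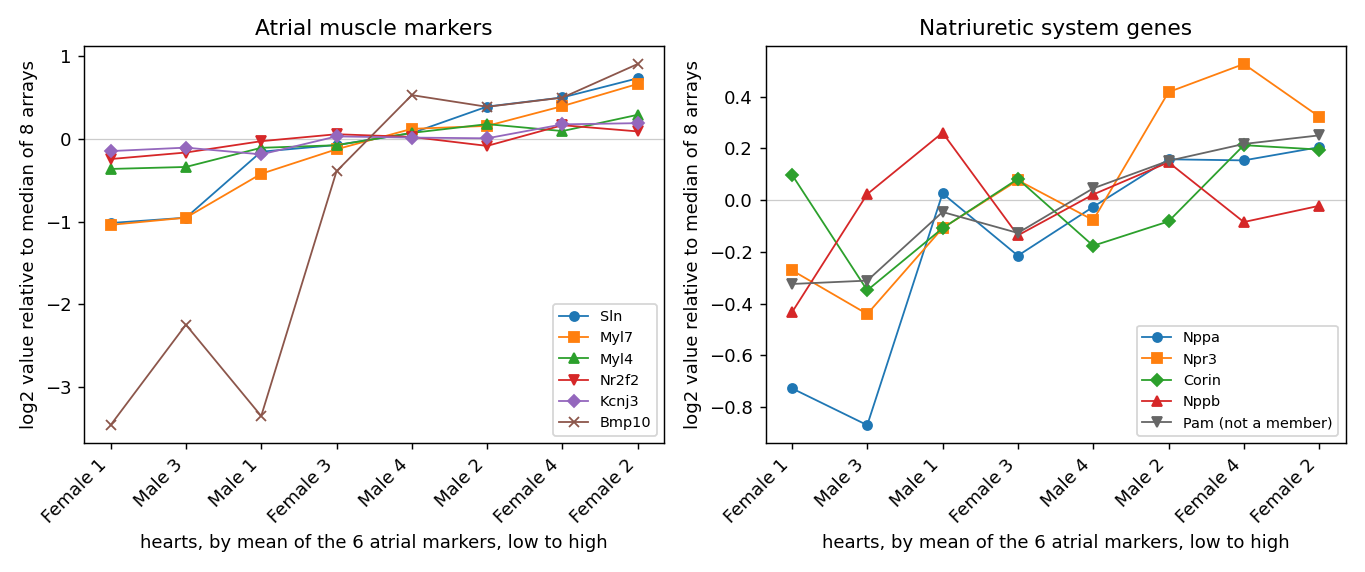
Log2 values relative to the median of 8 arrays (y axis) in hearts ordered from low to high by the mean of 6 atrial muscle markers (x axis). The left panel shows the markers, and the right panel shows Nppa, Npr3, Corin, Nppb and Pam. Female 1 and male 3, lowest in Sln and Myl7, are lowest in Nppa and Npr3, whereas Nppb is lowest in female 1 and highest in male 1.

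The likeness of patterns was described by Pearson's r over the 8 arrays after the mean of each sex was subtracted. With 22180 genes and 8 arrays, high values are common: the median over all genes of the best match was 0.982. Among members, Nppa had its highest r with Corin (0.895), Npr3 (0.888) and Nppb (0.774), which came at ranks 63, 78 and 407 among all genes. Of the atrial markers, Sln (0.961) came 6th for Nppa among the genes that could be named, and Myl4 (0.923) and Myl7 (0.921) came 21st and 23rd. The other markers were further down, with Nr2f2 (0.805) at rank 234, Kcnj3 (0.688) at rank 666 and Bmp10 (0.681) at rank 701. Mme ran against both peptide genes, with r = -0.935 for Nppb and -0.886 for Nppa. Only 32 genes had a lower r with Nppb. These pairs were picked from 45 pairs of members, with r from -0.935 to 0.895, and they share the same 8 hearts.

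The 5 genes most like Nppa were Dnajc14 (r = 0.971), Sphkap, Grk4, Tmem198b and Hars2. Those most like Nppb were Gli3 (r = 0.967), Art3, Prss12, Zmiz1os1 and Plekha4. The 2 genes most like each other member were Plxna4 and C1galt1 for Corin, Neurl4 and Rab15 for Npr1, B4galt4 and Lonrf3 for Npr2, and Mlana and Psip1 for Npr3. They were Slc4a8 and Mgp for Ace, Prr30 and C1d for Agt, Psat1 and Esco1 for Agtr1a, and Mycbp and Mrps7 for Mme. The best matches of Nppa, Nppb, Corin and Agt lay below the median best match of all genes, and those of the other members above it. By Spearman's rho none of the 5 genes named for Nppa, and 1 of the 5 for Nppb, stayed among the top 5. Of the 2 genes named for each other member, 1 stayed among the top 2 for Corin, Npr2, Npr3 and Agtr1a, and none for Npr1, Ace, Agt and Mme.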

How the data were processed

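Per the labels' protocols, biotin-labelled cRNA was made from 100 ng of total RNA by the Affymetrix protocol. The authors deposited log2 values for 34351 probe sets on 8 arrays, each centred on its probe set's median (0 within 1e-06). The log base was taken as 2, and the sources used here do not state the software or the normalization behind these values. The number of arrays limits the precision, and the median standard error of a difference was 0.0497.

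Gene names came from the annotation of the platform, where 23521 probe sets had 1 symbol, 1814 several and 9016 none. The mean over its probe sets was taken for each of the 22180 genes. Promoters came from RefSeq (GRCm38.p6), which held 9 of the 10 members. Females were compared with males with the R package limma, version 3.58.1 (R 4.3.3; eBayes after lmFit, with no other term than sex), adjusted by Benjamini-Hochberg over all genes, at a threshold of 0.05. The code was tested on simulated data.

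Members and lists were chosen with earlier results of these data known. The text names all members and the genes past the threshold in each of 4 lists (filled to 4 by smallest p). It also names the genes most like each member by r (5 for the peptide genes, 2 for the others). Predicted, Rik, microRNA, small nucleolar RNA, olfactory and vomeronasal genes were left out of these likeness lists. Pam, Tbx5, Kdr, Cdh5 and the other marker genes were named after their values were seen. Alternatives were quantile normalization, median centring, single probe sets, trend and robust settings, array weights, a replicate block, 2 marker covariates, autosomal genes only and each array left out. The atrial covariate was the unscaled mean of 6 markers, of which Bmp10 had the largest within-sex SD (1.96). Leaving out the hearts highest in Myh4 or Alb or lowest in Bmp10 was chosen after seeing the data. A filter on dim probe sets could not be run, since centred values hold no brightness.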

Additional observations from a re-analysis of the deposited data

Results flagged for a closer look

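Of the 26 members, pathway genes and regulators with named values, 5 of 52 sets of 4 hearts held a heart far from the other 3, where chance gives about 1 in 20. Agtr1a was -0.23 in male 1, against 0.02 to 0.04 in the other males. Bdkrb1 was 0.056 in female 2, against -0.09 to -0.08 in the other females. Prep was 0.071 in male 1, against -0.0015 to 0.0049 in the other males. Gata6 was 0.16 in female 4, against -0.0025 to 0.021 in the other females, and 0.0064 in male 4, against -0.04 to -0.03 in the other males.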

How the results depend on the processing

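The 52 genes outside the members had 0 calls in all 20 alternatives. Over all genes, 7 were called, and the count was 3 after quantile normalization, 0 with autosomal genes only, 4 without the 3 hearts lowest in Bmp10 and 4 to 7 with 1 array left out (4 without male 3). Arrays with the same replicate number had correlations of 0.01 to 0.14, higher than with any other number for 3 of the 4 females. Not every pair reached 0.1, so the numbers were not taken as pairs, and the replicate block gave 8 calls. The cause of these shifts was not tested, except that autosomal genes only leaves out the sex-linked genes. Among members, the signs for Corin, Ace, Nppb, Npr1, Npr3, Agtr1a and Mme were the same in all alternatives, and those of Nppa, Npr2 and Agt were not. Of 16 other named genes, 14 kept their sign throughout. The difference of Scnn1a was 0.013 without the 2 hearts highest in Alb. That of Nr3c2 was -0.043 without the 3 hearts highest in Myh4, -0.013 without the 2 highest in Alb, -0.023 without the 3 lowest in Bmp10, -0.016 by its first probe set and -0.022 to 0.049 with 1 array left out, the lowest without male 1. Without the 3 hearts highest in Myh4, Npr2 was 0.08. Brightness is unknown, so how far signal over background limits a gene cannot be given.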

Other observations

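Markers of further cell types varied as follows, as values only. Of 6 endocardial markers, 5 had higher means in females. Cytl1 led them, with 0.07, 0.17, 0.54 and 0.51 in females, against -0.27, -0.14, -0.07 and -0.23 in males, a difference of 0.50 ± 0.11 (SE, limma adjusted p = 0.377). These did not overlap. Of 8 measured adipocyte markers, 7 had higher means in females, with a list mean of 0.14 in females and -0.09 in males. Of 8 fibroblast markers, 5 had higher means in females, while the list means were -0.06 in females and 0.04 in males. The collagen genes Col1a1, Col3a1 and Col1a2 had differences of -0.44, -0.44 and -0.30, and the other 5 markers differences of 0.03 to 0.15. All 6 liver markers had higher means in females (0.27, against -0.05 in males), led by Alb in the 2 females given above. The means of the 4 ventricular, 5 mast cell and 5 macrophage markers were -0.01, 0.02 and 0.01 in females, against -0.01, -0.0012 and -0.01 in males. Red blood cell markers were not measured by a probe set with a single symbol here. In all these lists, 0 genes passed the limma threshold.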
